A study of Mus musculus with 12 samples.

Results

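Acute-phase proteins are plasma proteins that the liver makes at altered rates during inflammation and injury. The 10 genes described here were taken by symbol: the serum amyloid A genes Saa1, Saa2 and Saa4, the orosomucoid genes Orm1 and Orm2, haptoglobin (Hp), hemopexin (Hpx), the pentraxin genes Crp and Apcs, and lipocalin 2 (Lcn2). All 10 were found among the 36047 genes to which a listed transcript was assigned. They were measured by poly(A) RNA-seq in the livers of 12 male C57Bl/6J mice, 5 to 6 months old, with 3 mice in each of 4 diet groups. RF.Ctrl mice ate a regular-fat control diet with 18% of energy as fat, and RF.SAAR mice ate a sulfur amino acid restricted (SAAR) diet of the same fat content. HF.Ctrl and HF.SAAR mice ate the control and the restricted diet with 60% of energy as fat. None of the 4 diets contained cysteine, and in the restricted diets part of the methionine was replaced by glutamic acid. Mice were housed singly, ate their diet for 7 days and had no food for the last 4 h. Deuterium-labelled drinking water was given in the study. Mice are numbered 1 to 3 within each group in the order of deposit, so a shared number pairs no mice.

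In the acute-phase response, cytokines of the interleukin 6 and interleukin 1 families reach hepatocytes and act through STAT3, NF-kB and C/EBP factors on the promoters of secreted proteins. Positive acute-phase genes are induced, to different degrees, whereas negative ones, albumin among them, are lowered. The products carry lipid, drugs, hemoglobin, heme or iron-binding siderophores, or bind microbial and damaged-cell surfaces.

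Total estimated counts were 18722319, 20162590 and 17207527 in the RF.Ctrl mice, 17061599, 18429983 and 17947785 in the RF.SAAR mice, 16203094, 21230092 and 16649996 in the HF.Ctrl mice and 17710716, 19933360 and 19895587 in the HF.SAAR mice. Values below are normalized CPM, that is, counts over a library size scaled by the trimmed mean of M-values (TMM), or TPM, which also accounts for transcript length, where genes are compared with each other. Differences are log2 fold changes ± SE from edgeR's quasi-likelihood test, and a gene is called at a Benjamini-Hochberg adjusted p under 0.05 over the 14670 genes that passed the low-count filter, which all 10 members did. Without the TMM factors, the median over the 14670 genes moved on the log2 scale from −0.00 to 0.16 in RF.SAAR vs. RF.Ctrl, to 0.17 in HF.SAAR vs. HF.Ctrl and to 0.16 in the restriction effect averaged over fat. The changes given are therefore relative to the TMM centre.

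All 10 hepatocyte markers were detected in every mouse, as the liver label requires. Their summed TPM ran from 45142 to 65571 over the 12 mice, led by Alb with a mean of 32728 TPM. Several libraries also held transcripts of pancreatic acinar cells. Summed normalized CPM of the 31 acinar genes was 1774, 83.4 and 89.6 in the RF.Ctrl mice, 42.6, 101 and 74.2 in the RF.SAAR mice, 1989, 7645 and 82.9 in the HF.Ctrl mice and 73.8, 4399 and 19473 in the HF.SAAR mice. RF.Ctrl mouse 1, HF.Ctrl mice 1 and 2 and HF.SAAR mice 2 and 3 were thus above 1000, and the tests were repeated without these 5 mice.

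By mean TPM over the 12 mice, the members ranged from Hpx with 1717 and Hp with 1553 to Lcn2 with 6.79. Between them came Orm1 (497), Crp (399.6), Apcs (138), Saa4 (137), Saa1 (60.1), Saa2 (16.8) and Orm2 (9.35). Hpx stood at rank 68 and Hp at rank 76 of all 36047 genes. Along this order, only Hp, lowest at 1289 TPM, and Orm1, highest at 953 TPM, were neighbours whose ranges over the mice did not meet. The spread between mice was narrowest for Hp, whose highest normalized CPM was 1.35 times its lowest, and widest for Saa1, with a ratio of 9.31. Summed over the 10 members, normalized CPM was 4882, 4906 and 4521 in the RF.Ctrl mice and 4873, 4392 and 4605 in the RF.SAAR mice. The corresponding sums were 5285, 5332 and 4499.9 in the HF.Ctrl mice and 5103, 5604 and 5398 in the HF.SAAR mice. These sums, which are made up mostly of Hp and Hpx, overlapped between control and restricted mice on either fat. Summed TPM overlapped on regular fat but not on high fat. It was 4189, 3732 and 4084 in the HF.Ctrl mice and 5116, 4843 and 5549 in the HF.SAAR mice.

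**Figure D1:**
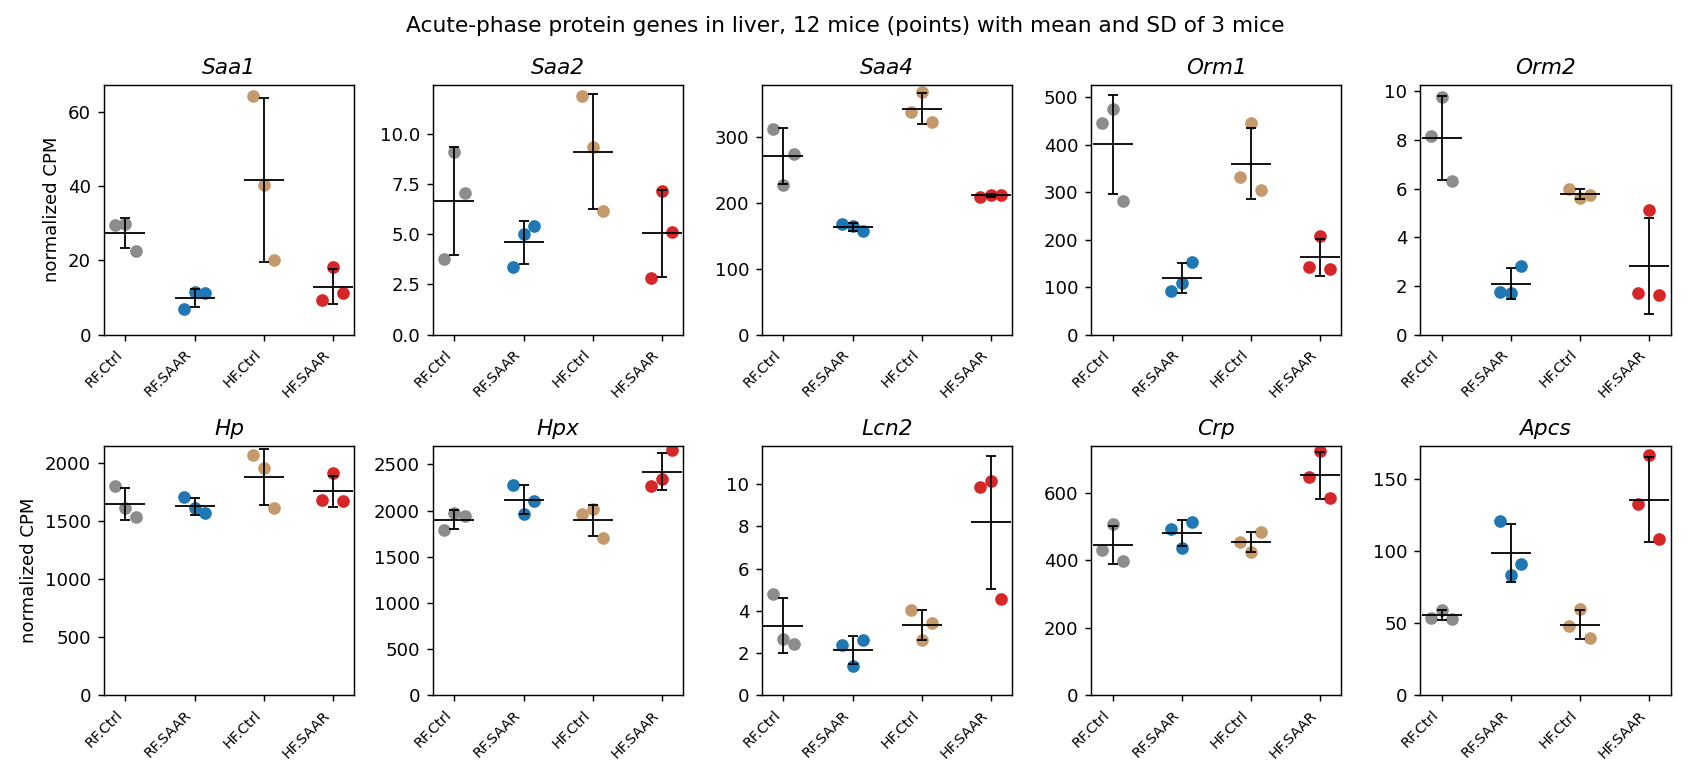
Normalized CPM (linear axis from 0) of each of the 10 genes in the 12 mice, with 1 point per mouse and a black bar and whiskers for the mean and SD of the 3 mice of each diet group. Saa4 and Orm1 sit lower, and Apcs higher, in all restricted mice than in all control mice on the same fat, whereas the Hp points of the groups overlap.

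Restriction moved the members in opposite directions. On regular fat, Apcs rose while Saa4, Orm1 and Orm2 fell, so that 4 of 10 members were called, against 1.48% of all genes tested (217 of 14670). On high fat, Apcs and Crp rose while Saa4 and Orm1 fell, again 4 of 10, against 1.97% of all genes (289 of 14670). Averaged over fat, 7 of 10 members were called, against 6.91% of all genes (1014 of 14670): Apcs, Hpx and Crp rose, and Saa1, Saa4, Orm1 and Orm2 fell. The median log2 fold change of the members was −0.58 on regular fat, −0.40 on high fat and −0.37 in the average, and that of all genes was −0.00 in each. DESeq2 called 5, 7 and 7 members in these comparisons, against 606, 608 and 1386 of all genes. The count on regular fat was 2 without RF.Ctrl mouse 1, RF.Ctrl mouse 2, RF.SAAR mouse 1 or RF.SAAR mouse 3, and that on high fat was 2 without HF.Ctrl mouse 1, HF.Ctrl mouse 2 or HF.SAAR mouse 1. Without the 5 mice over 1000 acinar CPM, 2 members were called on regular fat (Saa1 and Orm2), 0 on high fat, where 1 mouse per group was left and was assumed to vary like the other groups, and 4 in the average (Saa1, Saa4, Orm2 and Apcs). Over all 15399 genes that fit called 0.526%, 0.0390% and 1.53% (81, 6 and 236 genes). In the mice left on high fat, HF.Ctrl mouse 3 and HF.SAAR mouse 1, Saa4 was 322 and 209 normalized CPM. Orm1 was 304 and 142 in these mice, Crp 483 and 647 and Apcs 39.8 and 133. The counts over all genes depended on single mice as well. On regular fat they were 99 without RF.Ctrl mouse 1, 99 without RF.Ctrl mouse 2, 87 without RF.Ctrl mouse 3, 124 without RF.SAAR mouse 1, 94 without RF.SAAR mouse 3 and 143 without HF.Ctrl mouse 1, on high fat 110 without HF.Ctrl mouse 1, 158 without HF.Ctrl mouse 3, 119 without HF.SAAR mouse 1, 173 without HF.SAAR mouse 2 and 154 without HF.SAAR mouse 3, and in the average 655 without HF.Ctrl mouse 1. Fewer cells of a type and less RNA per cell cannot be told apart in these bulk samples.

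**Figure D2:**
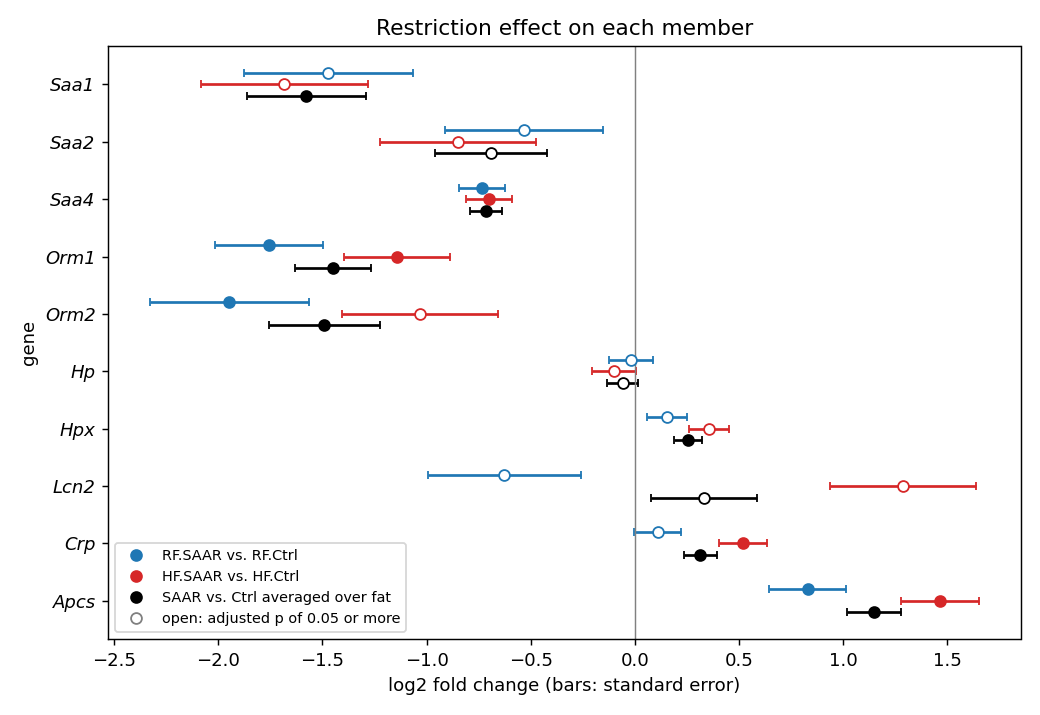
Log2 fold change (horizontal axis, with SE as bars) of each gene in RF.SAAR vs. RF.Ctrl (blue), HF.SAAR vs. HF.Ctrl (red) and the average over fat (black), with filled points for adjusted p under 0.05 and open points otherwise. Saa1, Saa4, Orm1 and Orm2 lie left of 0 and Apcs lies right of 0 in all 3 effects, and Lcn2 has −0.63 on regular fat and 1.29 on high fat, neither of them called.

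Serum amyloid A proteins are small apolipoproteins of high-density lipoprotein. Saa1 and Saa2 encode the forms that surge in an acute-phase response, whereas Saa4 encodes the form made constitutively. In the GRCm38 build the genes lie side by side, Saa4 at chr7:46727998-46732603, minus strand, Saa1 at chr7:46740497-46742980, minus strand, and Saa2 at chr7:46751790-46754313, plus strand. Because Saa1 and Saa4 fell and Saa2, close to Saa1 in sequence, was not called, the bases before their RefSeq start sites are shown, ending where annotated transcripts begin, from chr7:46742981-46743230, minus strand for Saa1, chr7:46751583-46751789, plus strand for Saa2 and chr7:46732604-46732853, minus strand for Saa4 (GRCm38.p6, 5′ to 3′ along the gene).
Saa1: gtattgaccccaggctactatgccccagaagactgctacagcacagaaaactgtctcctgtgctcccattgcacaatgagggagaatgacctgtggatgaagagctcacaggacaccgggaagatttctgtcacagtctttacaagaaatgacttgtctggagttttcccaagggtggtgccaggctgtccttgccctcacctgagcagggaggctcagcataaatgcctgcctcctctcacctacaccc
Saa2: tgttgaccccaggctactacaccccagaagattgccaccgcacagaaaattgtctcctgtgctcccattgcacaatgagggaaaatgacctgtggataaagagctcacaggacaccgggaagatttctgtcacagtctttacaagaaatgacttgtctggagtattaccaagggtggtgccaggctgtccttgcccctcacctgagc
Saa4: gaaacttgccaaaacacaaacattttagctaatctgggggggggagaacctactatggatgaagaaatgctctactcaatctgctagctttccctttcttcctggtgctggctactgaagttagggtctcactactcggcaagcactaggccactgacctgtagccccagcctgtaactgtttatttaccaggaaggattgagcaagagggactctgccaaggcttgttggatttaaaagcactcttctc
Over the 250 bases before the start site, Saa1 and Saa2 were 95.2% identical in a global alignment, and Saa4 was 51.2% identical to either. Their main transcripts resemble each other as well: 30.1% of the 31-base words of Saa1 and 27.3% of those of Saa2 occur in another gene, Saa2 or Saa1 and Saa3, compared with 1.6% for Saa4. How the counting divided reads between Saa1 and Saa2 is thus uncertain for part of their length, and their sum is given beside them.

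Saa1 read 29.6, 30.0 and 22.6 normalized CPM in the RF.Ctrl mice and 6.93, 11.5 and 11.2 in the RF.SAAR mice. On high fat it read 64.5, 40.3 and 20.2 in the control mice and 9.38, 18.2 and 11.3 in the restricted mice. The restricted mice were all below the control mice on the same fat, and HF.Ctrl mouse 1, the highest of all 12, was far above HF.Ctrl mouse 3. Averaged over fat, Saa1 fell by 1.58 ± 0.29 on the log2 scale, a fold of 2.99 (adjusted p = 0.0102). Within each fat the estimate was similar but not called, at −1.47 ± 0.41 on regular fat (adjusted p = 0.124) and −1.68 ± 0.40 on high fat (adjusted p = 0.0748). Without HF.Ctrl mouse 3, Saa1 was called on both, with adjusted p of 0.0400 and 0.0144. Over the alternative settings, its adjusted p ran from 0.00124 (DESeq2) to 0.264 (no low-count filter) on regular fat and from 7.26e-05 (DESeq2) to 0.421 (without mice over 1000 acinar CPM) on high fat.

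Saa2 was less abundant. It read 3.78, 9.11 and 7.05 normalized CPM in the RF.Ctrl mice, 3.36, 5.04 and 5.39 in the RF.SAAR mice, 11.9, 9.34 and 6.16 in the HF.Ctrl mice and 2.84, 7.18 and 5.13 in the HF.SAAR mice. These groups overlapped on either fat, and Saa2 was called in no comparison, with −0.69 ± 0.27 averaged over fat (adjusted p = 0.164). Summed, Saa1 and Saa2 gave 33.4, 39.1 and 29.7 normalized CPM in the RF.Ctrl mice against 10.3, 16.5 and 16.6 in the RF.SAAR mice. The sums on high fat were 76.4, 49.7 and 26.4 in the control and 12.2, 25.4 and 16.4 in the restricted mice, so that the sum, like Saa1 alone, was lower in every restricted mouse. Fitted as a sum, the pair fell by 1.36 on the log2 scale in the average (adjusted p = 0.0167, over a range for Saa1 of 9.51e-09 (DESeq2) to 0.0367 (without mice over 1000 acinar CPM)).

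Saa4 was the most uniform of the members that fell. Its normalized CPM was 312, 228 and 274 in the RF.Ctrl mice and 169, 165 and 157 in the RF.SAAR mice. In the HF.Ctrl mice it was 338, 369 and 322, and in the HF.SAAR mice 209, 213 and 212. In normalized CPM the restricted mice lay within a narrow band on each fat, below every control mouse. On this scale the HF.Ctrl mice lay above the RF.Ctrl mice and the HF.SAAR mice above the RF.SAAR mice. Among the mice at or below 1000 acinar CPM, RF.Ctrl mice 2 and 3 had 228 and 274, against 169, 165 and 157 in RF.SAAR. On high fat HF.Ctrl mouse 3 had 322 and HF.SAAR mouse 1 had 209. In TPM the restricted mice were again below the control mice on the same fat, but the fats overlapped. HF.Ctrl mouse 2 had 156 TPM against 158 in RF.Ctrl mouse 1. HF.SAAR mouse 2 had 114 TPM against 117 in RF.SAAR mouse 1, and the HF.SAAR mice ran from 114 to 140. Saa4 fell by 0.73 ± 0.11 on regular fat (adjusted p = 0.00490) and fell by 0.70 ± 0.11 on high fat (adjusted p = 0.00498), and the interaction was 0.03 ± 0.16. In the average over fat it fell by 0.72 ± 0.08, a fold of 1.64 (adjusted p = 0.000133). Leaving out any of the 12 mice ended none of these 3 calls, whereas over the other settings the adjusted p ran from 3.94e-08 (DESeq2) to 0.0761 (without mice over 1000 acinar CPM) on regular fat, from 1.06e-07 (DESeq2) to 0.353 (without mice over 1000 acinar CPM) on high fat and from 1.72e-16 (DESeq2) to 0.0349 (without mice over 1000 acinar CPM) in the average. Saa3, another serum amyloid A gene at the locus, was tested too and had 0.24 ± 0.22 in the average (adjusted p = 0.618), with at least 1.79 normalized CPM in each of the 12 mice.

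Orosomucoids, or alpha-1-acid glycoproteins, are heavily glycosylated plasma proteins that bind basic drugs and lipids. Orm1 lies at chr4:63344560-63348163, plus strand, Orm3 at chr4:63356162-63359511, plus strand and Orm2 at chr4:63362449-63365878, plus strand. The 250 bases before the Orm2 start site (chr4:63362199-63362448, plus strand, GRCm38.p6) are shown because they hold a palindromic C/EBP motif, TTGCGCAA, in capitals, from 120 to 113 bases before the start.
Orm2: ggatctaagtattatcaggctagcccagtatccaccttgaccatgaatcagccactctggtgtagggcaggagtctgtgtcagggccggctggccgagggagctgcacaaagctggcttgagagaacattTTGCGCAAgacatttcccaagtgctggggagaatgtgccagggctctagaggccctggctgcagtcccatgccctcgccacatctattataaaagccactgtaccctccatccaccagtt
That motif, which reads the same on both strands, occurs in 0.164% of the 32851 mouse promoters of this length. No sequence is shown for Orm1.

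Orm1 was 446, 476 and 282 normalized CPM in the RF.Ctrl mice and 92.4, 109.6 and 154 in the RF.SAAR mice. On high fat its values were 331, 445 and 304 in the control mice and 142, 208 and 139 in the restricted mice. No restricted mouse reached the lowest control mouse, RF.Ctrl mouse 3. Among the mice at or below 1000 acinar CPM, RF.Ctrl mice 2 and 3 had 476 and 282, against 92.4, 109.6 and 154 in RF.SAAR. On high fat HF.Ctrl mouse 3 had 304 and HF.SAAR mouse 1 had 142. Orm1 fell by 1.76 ± 0.26 on regular fat, a fold of 3.38 (adjusted p = 0.00782), and fell by 1.14 ± 0.25 on high fat, a fold of 2.21 (adjusted p = 0.0444). These effects were not shown to differ, with an interaction of 0.61 ± 0.36 (adjusted p = 0.999). Averaged over fat the fall was 2.73-fold, at −1.45 ± 0.18 (adjusted p = 0.000755). The call on high fat was lost in 8 of 12 fits that left out a mouse, with adjusted p of 0.0649 without RF.Ctrl mouse 1, 0.0537 without RF.Ctrl mouse 2, 0.0686 without RF.SAAR mouse 2, 0.108 without HF.Ctrl mouse 1, 0.123 without HF.Ctrl mouse 2, 0.0823 without HF.Ctrl mouse 3, 0.178 without HF.SAAR mouse 1 and 0.173 without HF.SAAR mouse 3. Among the other settings it ran from 0.000123 (DESeq2) to 0.591 (without mice over 1000 acinar CPM), and the fit without the low-count filter lost the call too. On regular fat it ran from 1.35e-10 (DESeq2) to 0.120 (without mice over 1000 acinar CPM) and in the average from 3.16e-15 (DESeq2) to 0.105 (without mice over 1000 acinar CPM), the fit without the 5 mice over 1000 acinar CPM being the only setting without those calls.

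Orm2 was 9.35 TPM on average where Orm1 was 497. Its normalized CPM was 8.18, 9.77 and 6.32 in the RF.Ctrl mice and 1.76, 1.70 and 2.82 in the RF.SAAR mice. The HF.Ctrl mice had 6.01, 5.62 and 5.73 and the HF.SAAR mice 1.72, 5.12 and 1.65. On this scale all restricted mice were below the controls on the same fat, but HF.SAAR mouse 2 came close to them. In TPM the high-fat groups overlapped, as HF.SAAR mouse 2 had 9.90 against 8.53 in HF.Ctrl mouse 2. Orm2 fell by 1.95 ± 0.38 on regular fat, a fold of 3.86 (adjusted p = 0.0252), and fell by 1.49 ± 0.27 averaged over fat (adjusted p = 0.00532). On high fat it had −1.03 ± 0.37 and was not called (adjusted p = 0.237), and without HF.SAAR mouse 2 it was called, at −1.79 (adjusted p = 0.00766). The interaction was 0.91 ± 0.53 (adjusted p = 0.999). On regular fat the call was lost in 5 of 12 fits that left out a mouse, with adjusted p of 0.0669 without RF.Ctrl mouse 1, 0.0925 without RF.Ctrl mouse 2, 0.101 without RF.SAAR mouse 1, 0.0984 without RF.SAAR mouse 2 and 0.0525 without RF.SAAR mouse 3.

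Of the 31-base words in the main transcripts, 27.5% for Orm1 and 34.1% for Orm2 occur in another gene, mostly in each other and in Orm3, so their split is uncertain too. Orm3, counted with the other positive acute-phase genes, had 1 to 6 estimated counts in the RF.SAAR mice against 20 to 41 in the RF.Ctrl mice, and fell by 2.94 ± 0.65 (adjusted p = 0.0388). That call was lost in 8 of 12 fits that left out a mouse, with adjusted p of 0.0817 without RF.Ctrl mouse 1, 0.119 without RF.Ctrl mouse 2, 0.0737 without RF.Ctrl mouse 3, 0.0785 without RF.SAAR mouse 1, 0.112 without RF.SAAR mouse 2, 0.139 without RF.SAAR mouse 3, 0.0582 without HF.Ctrl mouse 1 and 0.0552 without HF.Ctrl mouse 2, and also with the acinar covariate and without the mice over 1000 acinar CPM. On regular fat Orm3 had −2.81 with the acinar covariate and −2.945 without the mice over 1000 acinar CPM. The Orm3 values on high fat, 3.62, 2.50 and 2.01 normalized CPM in the control mice and 0.643, 2.79 and 0.848 in the restricted mice, overlapped through HF.SAAR mouse 2 (adjusted p = 0.526). Summed over Orm1, Orm2 and Orm3, the family fell by 1.45 on the log2 scale averaged over fat (adjusted p = 0.000797, within the range given for Orm1).

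Haptoglobin binds free hemoglobin and hemopexin binds free heme, and the complexes are cleared by macrophages and hepatocytes. Hp (chr8:109575128-109579172, minus strand) was 1799.8, 1608 and 1532 normalized CPM in the RF.Ctrl mice and 1704, 1609.5 and 1564 in the RF.SAAR mice. It was 2066, 1958 and 1608 in the HF.Ctrl mice and 1677, 1908 and 1674 in the HF.SAAR mice. On this scale the groups overlapped on either fat. Hp was not called in any comparison, and its restriction effect was −0.02 ± 0.10 on regular fat, −0.10 ± 0.10 on high fat and −0.06 ± 0.07 in the average (adjusted p = 0.742). The sign of these small values depended on the scaling, at 0.15, 0.07 and 0.11 with library size alone. On the TPM scale, which holds no TMM factor, Hp was 1399 ± 71.8 (SD, n = 3) in RF.Ctrl, 1678 ± 195 in RF.SAAR, 1426 ± 139.7 in HF.Ctrl and 1708 ± 54.1 in HF.SAAR, and every restricted mouse was above every control mouse on the same fat.

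Hpx (chr7:105591613-105600137, minus strand) was 1792, 1977 and 1943 normalized CPM in the RF.Ctrl mice and 2280.3, 1967 and 2104 in the RF.SAAR mice. Its values on high fat were 1959.7, 2017 and 1707 in the control mice and 2271, 2344 and 2656 in the restricted mice. On this scale RF.SAAR mouse 2 fell between the regular-fat controls, whereas every HF.SAAR mouse was above every HF.Ctrl mouse. In TPM every restricted mouse was above every control mouse on either fat. RF.SAAR mouse 2, the lowest of its group, had 1666 TPM against 1582 in RF.Ctrl mouse 2, the highest of its group. Averaged over fat, Hpx rose by 0.25 ± 0.07, a fold of 1.19 (adjusted p = 0.0382). Within the fats it had 0.15 ± 0.10 (adjusted p = 0.556) and 0.36 ± 0.10 (adjusted p = 0.0860), with an interaction of 0.20 ± 0.14 (adjusted p = 0.999). The averaged call rested on most mice being present: it was lost in 10 of 12 fits that left out a mouse, with adjusted p of 0.0906 without RF.Ctrl mouse 1, 0.0648 without RF.Ctrl mouse 2, 0.0694 without RF.Ctrl mouse 3, 0.0892 without RF.SAAR mouse 1, 0.0647 without RF.SAAR mouse 3, 0.0743 without HF.Ctrl mouse 1, 0.0811 without HF.Ctrl mouse 3, 0.0543 without HF.SAAR mouse 1, 0.0524 without HF.SAAR mouse 2 and 0.113 without HF.SAAR mouse 3. Over the other settings that adjusted p ran from 0.00176 (library size alone) to 0.321 (without mice over 1000 acinar CPM), and on high fat it ran from 0.00909 (library size alone) to 0.607 (without mice over 1000 acinar CPM), where DESeq2 and library size alone called Hpx.

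Pentraxins are ring-shaped proteins that bind phosphocholine, chromatin and other ligands and engage complement and Fc receptors. Apcs encodes serum amyloid P component, in mice the pentraxin known for a strong acute-phase response, and Crp encodes C-reactive protein, which responds little in mice and strongly in humans. Apcs lies at chr1:172893961-172895041, minus strand, and the main transcript of Crp begins at position 172698055 of the same chromosome, on the plus strand. The sequences before their start sites are shown, as both genes rose, from chr1:172895055-172895304, minus strand for Apcs and chr1:172697806-172698054, plus strand for Crp (GRCm38.p6), with a STAT motif, TTCNNNGAA, in capitals from 244 to 236 bases before the Apcs start.
Apcs: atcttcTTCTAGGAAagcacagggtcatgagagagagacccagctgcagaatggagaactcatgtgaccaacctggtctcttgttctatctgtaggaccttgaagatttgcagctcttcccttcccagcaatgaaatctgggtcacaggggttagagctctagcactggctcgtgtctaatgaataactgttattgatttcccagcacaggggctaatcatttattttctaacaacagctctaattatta
Crp: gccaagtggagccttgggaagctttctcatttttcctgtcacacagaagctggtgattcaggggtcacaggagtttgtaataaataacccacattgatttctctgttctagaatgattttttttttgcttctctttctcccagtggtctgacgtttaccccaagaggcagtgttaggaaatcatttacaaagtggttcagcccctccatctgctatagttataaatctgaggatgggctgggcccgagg
The promoters were 55.6% identical over 250 bases. The STAT motif, also a palindrome, occurs in 7.02% of all 32851 promoters. Of the 8 members with a listed promoter, 1 (Apcs) held it, 1 (Orm2) held the C/EBP motif, and 0 held the NF-kB motif (7.25% of all promoters), the HNF1 motif GTTAAT (6.43%) or the C/EBP-ATF response element TGATGNAA (3.45%), each searched on both strands. A match describes letters only, and the motifs were chosen with the files at hand.

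Apcs read 53.7, 59.5 and 53.4 normalized CPM in the RF.Ctrl mice and 121, 84.0 and 91.0 in the RF.SAAR mice. It read 48.0, 59.8 and 39.8 in the HF.Ctrl mice and 133, 167 and 108 in the HF.SAAR mice. All 6 restricted mice were above all 6 control mice, the lowest of them being RF.SAAR mouse 2 and the highest HF.SAAR mouse 2. Of the mice at or below 1000 acinar CPM on high fat, HF.Ctrl mouse 3 read 39.8 and HF.SAAR mouse 1 read 133. Apcs rose by 0.83 ± 0.18 on regular fat, a fold of 1.78 (adjusted p = 0.0429), by 1.47 ± 0.19 on high fat, a fold of 2.76 (adjusted p = 0.00118), and by 1.15 ± 0.13 in the average (adjusted p = 0.000234). The larger value on high fat was not shown to differ, with an interaction of 0.64 ± 0.26 (adjusted p = 0.999). The call on regular fat was lost in 7 of 12 fits that left out a mouse, with adjusted p of 0.119 without RF.Ctrl mouse 1, 0.105 without RF.Ctrl mouse 2, 0.165 without RF.Ctrl mouse 3, 0.138 without RF.SAAR mouse 1, 0.0983 without RF.SAAR mouse 3, 0.0703 without HF.Ctrl mouse 1 and 0.0650 without HF.SAAR mouse 1, while no left-out mouse ended the calls on high fat or in the average. With the acinar covariate Apcs was not called on regular fat either, and over the other settings the adjusted p there ran from 0.000878 (DESeq2) to 0.0893 (without mice over 1000 acinar CPM). Without the 5 mice over 1000 acinar CPM it was not called on high fat, where its adjusted p ran from 8.85e-12 (DESeq2) to 0.0717 (without mice over 1000 acinar CPM), but was in the average, where it ran from 7.36e-15 (DESeq2) to 0.00840 (without mice over 1000 acinar CPM).

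Crp was 432, 507 and 398 normalized CPM in the RF.Ctrl mice and 492, 438 and 513 in the RF.SAAR mice. In the HF.Ctrl mice it was 456, 425 and 483 and in the HF.SAAR mice 647, 723 and 586. The regular-fat groups overlapped, and the HF.SAAR mice were above all others. Of the mice at or below 1000 acinar CPM on high fat, HF.Ctrl mouse 3 had 483 and HF.SAAR mouse 1 had 647. Crp rose by 0.52 ± 0.11 on high fat, a fold of 1.43 (adjusted p = 0.0325), and by 0.31 ± 0.08 in the average (adjusted p = 0.0306). On regular fat it had 0.11 ± 0.11 (adjusted p = 0.772), and the interaction of 0.41 ± 0.16 was not called (adjusted p = 0.999). On high fat the call was lost with adjusted p of 0.127 without HF.Ctrl mouse 1, 0.0987 without HF.Ctrl mouse 2, 0.0639 without HF.Ctrl mouse 3, 0.103 without HF.SAAR mouse 1 and 0.130 without HF.SAAR mouse 2, and in the average with adjusted p of 0.0699 without RF.Ctrl mouse 1, 0.0842 without RF.Ctrl mouse 3, 0.0651 without RF.SAAR mouse 1, 0.0859 without RF.SAAR mouse 3, 0.0770 without HF.Ctrl mouse 1, 0.0660 without HF.Ctrl mouse 2, 0.0686 without HF.SAAR mouse 1 and 0.0758 without HF.SAAR mouse 2. The compared groups alone lost the call on high fat too, and among the other settings the adjusted p ran from 0.00111 (DESeq2) to 0.650 (without mice over 1000 acinar CPM) on high fat and from 0.00326 (library size alone) to 0.416 (without mice over 1000 acinar CPM) in the average.

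Lipocalin 2 binds bacterial siderophores and so withholds iron from microbes; hepatocytes induce it in inflammation, and neutrophils store it. Lcn2 (chr2:32384633-32388252, minus strand) had 26 to 196 estimated counts in the 12 mice, the fewest of any member at its lowest. Its SE for restriction on regular fat was 0.37, against 0.41 for Saa1, 0.38 for Saa2 and 0.38 for Orm2. In normalized CPM Lcn2 was 4.81, 2.66 and 2.43 in the RF.Ctrl mice and 2.40, 1.38 and 2.62 in the RF.SAAR mice. In the HF.Ctrl mice it was 4.03, 2.61 and 3.41, and in the HF.SAAR mice 9.87, 10.1 and 4.57. HF.SAAR mice 1 and 2 were higher than all other mice, and HF.SAAR mouse 3 was above every HF.Ctrl and RF.SAAR mouse but within the range of the RF.Ctrl mice. In TPM, HF.SAAR mouse 3 had 8.54, above RF.Ctrl mouse 1 with 6.63, the highest of its group. Lcn2 was called in none of the 7 comparisons: it had −0.63 ± 0.37 on regular fat (adjusted p = 0.522), 1.29 ± 0.35 on high fat (adjusted p = 0.0904) and 1.93 ± 0.36 in HF.SAAR vs. RF.SAAR (adjusted p = 0.139). The interaction, 1.92 ± 0.51, was the largest of any member (adjusted p = 0.999). Without RF.Ctrl mouse 1, the highest of its group, the value on regular fat was −0.26. Without HF.SAAR mouse 3 the effect on high fat was called, at 1.58 (adjusted p = 0.0354). DESeq2 called it on high fat (adjusted p = 0.0149, over a range of 0.0149 (DESeq2) to 0.394 (without mice over 1000 acinar CPM)) and in HF.SAAR vs. RF.SAAR (adjusted p = 0.000260, over a range of 0.000260 (DESeq2) to 0.433 (compared groups alone)). Library size alone also called it on high fat, and the fit without the low-count filter in HF.SAAR vs. RF.SAAR.

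Neutrophil markers were near the limit of detection: 5 of 13 were tested, 11 averaged under 1 TPM, 0 were at 0 counts in all mice, and S100a9 led them with a mean of 4.27 TPM. Their summed normalized CPM was 8.70, 8.08 and 6.81 in the RF.Ctrl mice, 5.60, 7.74 and 5.19 in the RF.SAAR mice, 4.44, 7.56 and 6.04 in the HF.Ctrl mice and 5.63, 9.51 and 6.59 in the HF.SAAR mice. HF.SAAR mouse 2, among the highest for Lcn2, was the highest here, but HF.SAAR mouse 1 was among the lower ones. By edgeR 0 of the 5 tested markers were called on either fat or in the average, with 1, 0 and 1 at an unadjusted p under 0.05 on regular fat, on high fat and in the average and 0 by DESeq2. Of the 5, 1 was above 0 on regular fat (median −0.07), 5 on high fat (median 0.23) and 3 in the average (median 0.10). The part of neutrophils in the Lcn2 values was not tested.

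Between the fats, no member passed the threshold. Regular-fat and high-fat diets came from different makers, and mice on high fat ate a smaller weight of food and so less sulfur amino acid, which in these comparisons cannot be told apart from the fat itself. In HF.Ctrl vs. RF.Ctrl, edgeR called 0 of 10 members, against 0% of all genes tested, with 1 member at an unadjusted p under 0.05 (Saa4) and 0 by DESeq2. In HF.SAAR vs. RF.SAAR it called 0 of 10, against 0.0477% of all genes, with 4 at an unadjusted p under 0.05 (Saa4, Lcn2, Crp and Apcs) and 1 by DESeq2 (Lcn2). All 10 members had log2 fold changes above 0 there, with a median of 0.41 against 0.01 over all genes, but several of these signs turned under other settings. With the acinar covariate Saa1 had −0.12, Saa2 −0.20 and Hp −0.02, and without the 5 mice over 1000 acinar CPM Saa1 had −0.08, Saa2 −0.70 and Orm2 −0.30. Saa2 had −0.21 and Orm2 −0.32 without HF.SAAR mouse 2, and Saa2 −0.04 without RF.SAAR mouse 1. In the same comparison all 28 tested acinar markers were above 0, with 0 called by edgeR and 21 by DESeq2, and all 13 Kupffer cell and macrophage markers were above 0 too, with a median of 0.18, 0 at an unadjusted p under 0.05 and 0 called by either tool. Beyond these fits the part of either in the members' values was not tested. Averaged over diet, HF vs. RF gave 0 of 10, against 0.0409% of all genes, with 3 at an unadjusted p under 0.05 (Saa4, Lcn2 and Crp) and 2 by DESeq2 (Saa4 and Lcn2). In normalized CPM, Saa4 was higher in every HF.Ctrl mouse than in every RF.Ctrl mouse and in every HF.SAAR mouse than in every RF.SAAR mouse. In TPM both pairs of groups overlapped. Its average over diet was 0.35 ± 0.08 (adjusted p = 0.175, or 0.00348 by DESeq2, the lowest over the settings). The interaction of diet and fat, which asks whether restriction acted differently on the fats, gave 0 of 10 members by edgeR and 0 by DESeq2, against 0.00682% of all genes, with 3 at an unadjusted p under 0.05 (Lcn2, Crp and Apcs). Over all genes, HF.SAAR vs. RF.SAAR gave 1 call without HF.SAAR mouse 2 and 1 without HF.SAAR mouse 3. HF vs. RF gave from 0 without RF.Ctrl mouse 1 to 11 without RF.SAAR mouse 2. The comparisons share mice, so their values for a member are set side by side and not counted as separate evidence.

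Orm1 and Apcs are plotted against each other because each alone already divided the diets, in opposite directions, so that the plot adds no separate support. Each restricted mouse combined an Orm1 value of at most 208 with an Apcs value of at least 84.0 normalized CPM, and each control mouse an Orm1 value of at least 282 with an Apcs value of at most 59.8. For the same reason no pooled correlation is given for the pair.

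**Figure D3:**
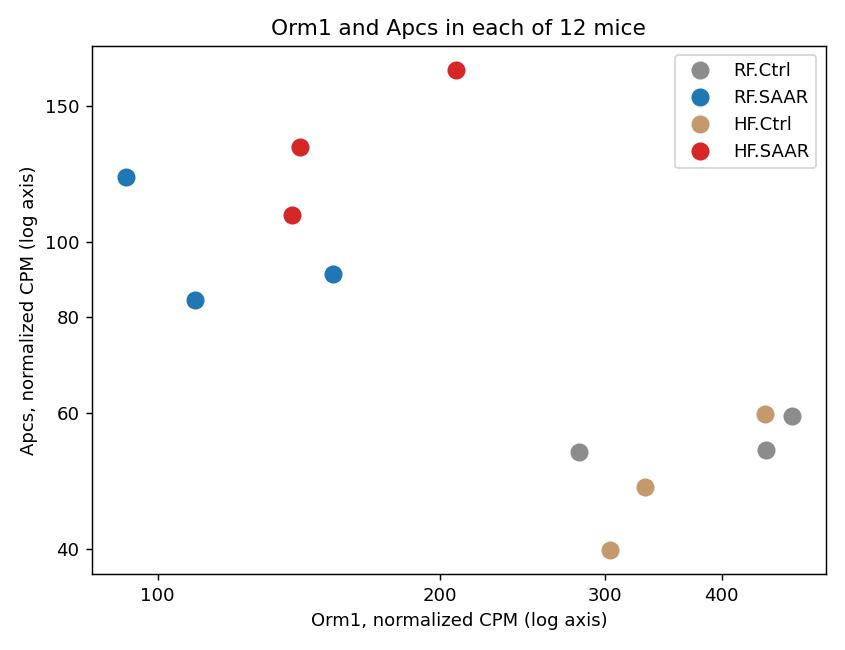
Apcs (vertical, log axis) against Orm1 (horizontal, log axis), both in normalized CPM, with 1 point per mouse colored by diet group. The 6 restricted mice lie at the upper left and the 6 control mice at the lower right, with the fats mixed within each set of points.

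The tested genes whose log2 CPM (prior count 2) followed a member most closely over the 12 mice are named for 9 members with Pearson's r as a description. Nearest to Orm1 were Cyp2f2 (0.97), Hao1 (0.95) and Orm2 (0.94), to Orm2 Orm1 (0.94), Cyp2f2 (0.93) and Smim15 (0.93), and to Saa4 Otc (0.97), mt-Nd4 (0.96) and Akr1c6 (0.94). Nearest to Apcs were Ugt1a9 (0.97), Gstm1 (0.95) and Hmox2 (0.95), to Crp Ugt2b36 (0.91), Atp6v1a (0.90) and Cyp2a5 (0.90), and to Hpx Ahsg (0.91), Gadd45b (0.91) and Fut1 (0.90). They were Amacr (0.93), C8g (0.92) and H3f3b (0.91) for Saa1, Fignl2 (0.92), Mettl21a (0.92) and Ipp (0.89) for Saa2 and Mrps6 (0.92), Fam220a (0.91) and Marcks (0.90) for Hp. All these values share the same 12 libraries and, where a member was called, the same diet difference.

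The wider acute-phase system was followed in 5 further gene lists, whose counts stand against 6.91% of all genes tested in the average over fat, 1.48% on regular fat and 1.97% on high fat. Among 38 regulators, from cytokines and receptors to transcription factors, 35 were tested, and Il6, Osm and Tnf were too low to test. In the average over fat 0 rose and 2 fell, with a median of −0.02 against −0.00 over all genes. The gene for the leukemia inhibitory factor receptor, Lifr, which passes on signals of the interleukin 6 family, was 272, 323 and 251 normalized CPM in the RF.Ctrl mice and 165, 125 and 162 in the RF.SAAR mice. It was 337, 369.7 and 272 in the HF.Ctrl mice and 122, 124 and 184 in the HF.SAAR mice. On this scale every restricted mouse was below every control mouse. In TPM the regular-fat groups overlapped, as RF.SAAR mouse 1 had 75.2 against 73.3 in RF.Ctrl mouse 1 and 71.9 in RF.Ctrl mouse 3. Lifr fell by 1.05 ± 0.13 in the average (adjusted p = 0.000339), the averaged call holding in every alternative. Onecut1, a hepatocyte transcription factor gene, fell by 1.65 ± 0.36 (adjusted p = 0.0298), and the call was lost with adjusted p of 0.0534 without RF.Ctrl mouse 1, 0.0672 without RF.Ctrl mouse 2, 0.0607 without RF.Ctrl mouse 3, 0.0670 without RF.SAAR mouse 1, 0.0763 without RF.SAAR mouse 3, 0.0770 without HF.SAAR mouse 1 and 0.0670 without HF.SAAR mouse 2. Cebpa, the most abundant regulator, had −0.12 ± 0.10 (adjusted p = 0.563) and 0.04 with library size alone. On regular and on high fat, 1 regulator was called in each, 0 of them upwards, against 2 by DESeq2 in each. It was Lifr both times, at −0.91 on regular and −1.19 on high fat. On high fat Lifr had −1.18 in the fit without the mice over 1000 acinar CPM, where 1 mouse per group was left. On regular fat its call was lost with adjusted p of 0.0597 without RF.Ctrl mouse 1, 0.0958 without RF.Ctrl mouse 2, 0.0546 without RF.SAAR mouse 1, 0.0861 without RF.SAAR mouse 2 and 0.0682 without RF.SAAR mouse 3, and also with library size alone and with effective length offsets. In the fit without the mice over 1000 acinar CPM, 1 regulator was called on regular fat, 0 on high fat and 1 in the average.

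Of 33 other positive acute-phase genes, 31 were tested, and in the average over fat 2 rose (Lbp and Mt1) and 6 fell (Steap4, Lrg1, Fga, Fgb, Fgg and Orm3), with a median of −0.04. Lbp, which encodes the lipopolysaccharide-binding protein, was 70.2, 68.4 and 53.8 normalized CPM in the RF.Ctrl mice and 100.1, 106 and 70.8 in the RF.SAAR mice. On high fat it was 68.7, 69.3 and 66.3 in the control and 109, 133 and 103 in the restricted mice. Lbp was thus higher in every restricted mouse, as Apcs was, and rose by 0.64 ± 0.11 in the average (adjusted p = 0.00352). The metalloreductase gene Steap4 fell by 0.97 ± 0.12 (adjusted p = 0.000412) and Lrg1 by 0.53 ± 0.11 (adjusted p = 0.0102). All 3 fibrinogen chain genes fell, by small amounts: Fga by 0.27 ± 0.06 (adjusted p = 0.0102) and Fgg by 0.28 ± 0.07 (adjusted p = 0.0241). With library size alone neither Fga (−0.10) nor Fgg (−0.11) was called, and the Fgg call was also lost with adjusted p of 0.0536 without RF.Ctrl mouse 1, 0.0686 without RF.Ctrl mouse 2, 0.0501 without RF.SAAR mouse 1, 0.0553 without RF.SAAR mouse 3, 0.0679 without HF.Ctrl mouse 1, 0.0558 without HF.Ctrl mouse 2 and 0.0734 without HF.SAAR mouse 3. Within the fats, 2 genes of this list were called on regular fat, both downwards, and 1 up and 1 down on high fat (Lbp and Steap4). The fit without the mice over 1000 acinar CPM had 0.69 for Lbp and −0.88 for Steap4 on high fat, against 0.75 and −0.87 in the main fit. On high fat Lbp was lost with adjusted p of 0.0983 without HF.Ctrl mouse 1, 0.0581 without HF.Ctrl mouse 2, 0.0826 without HF.Ctrl mouse 3, 0.0610 without HF.SAAR mouse 1 and 0.100 without HF.SAAR mouse 2, and Steap4 with 0.0695 without HF.Ctrl mouse 1, 0.0578 without HF.Ctrl mouse 2, 0.0521 without HF.Ctrl mouse 3, 0.0896 without HF.SAAR mouse 1 and 0.0760 without HF.SAAR mouse 2. From this list 1 gene was called on regular fat, 0 on high fat and 2 in the average without the mice over 1000 acinar CPM.

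Negative acute-phase genes are those whose transcripts decline in inflammation. Of the 18 negative acute-phase genes, all tested, 1 rose (Serpina6) and 3 fell (Igf1, Gc and Cyp3a11), with a median of −0.10. Serpina6, the corticosteroid-binding globulin gene, rose by 0.59 ± 0.14 (adjusted p = 0.0201), and Igf1, an insulin-like growth factor gene, fell by 0.37 ± 0.08 (adjusted p = 0.0118). The Serpina6 call was lost with adjusted p of 0.0510 without RF.Ctrl mouse 1, 0.0548 without RF.Ctrl mouse 2, 0.0515 without HF.Ctrl mouse 1 and 0.0541 without HF.SAAR mouse 2. The vitamin D-binding protein gene Gc fell by 0.22 ± 0.05 (adjusted p = 0.0241) and had −0.05 with library size alone, where it was not called. The Gc call was also lost with adjusted p of 0.0648 without RF.Ctrl mouse 2, 0.0541 without RF.Ctrl mouse 3, 0.0513 without RF.SAAR mouse 3, 0.0780 without HF.Ctrl mouse 1, 0.0656 without HF.SAAR mouse 1 and 0.0985 without HF.SAAR mouse 3. The cytochrome P450 gene Cyp3a11 fell by 0.75 ± 0.19 (adjusted p = 0.0373), a call lost with adjusted p of 0.0772 without RF.Ctrl mouse 1, 0.0507 without RF.Ctrl mouse 2, 0.0932 without RF.Ctrl mouse 3, 0.0917 without HF.Ctrl mouse 1, 0.0841 without HF.Ctrl mouse 3, 0.0932 without HF.SAAR mouse 1, 0.0680 without HF.SAAR mouse 2 and 0.0795 without HF.SAAR mouse 3. Alb, the most abundant, had −0.14 ± 0.07 (adjusted p = 0.261) and 0.02 with library size alone. On regular fat edgeR called 0 of the 18, with 5 at an unadjusted p under 0.05 and 2 by DESeq2, and on high fat it called 1, upwards (Serpina6, lost with adjusted p of 0.0587 without RF.Ctrl mouse 1, 0.0704 without RF.Ctrl mouse 2, 0.0531 without RF.Ctrl mouse 3, 0.165 without HF.Ctrl mouse 1, 0.136 without HF.Ctrl mouse 2, 0.0798 without HF.Ctrl mouse 3, 0.0605 without HF.SAAR mouse 1, 0.163 without HF.SAAR mouse 2 and 0.144 without HF.SAAR mouse 3, and also with the acinar covariate and without the low-count filter). Of the 18, 0 were called on either fat or in the average without the mice over 1000 acinar CPM, and leaving out a mouse gave 1 to 5 in the average.

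Genes that handle heme, hemoglobin and the iron released from it, downstream of Hp and Hpx, were called only upwards by edgeR. DESeq2 called 3 on regular fat, 5 on high fat and 8 in the average, 1 of them (Bach1) downwards on regular fat and in the average. Of 13 tested, 5 rose by edgeR in the average over fat (Slc48a1, Ftl1, Fth1, Hmox2 and Slc40a1), 8 were not called and 9 had values above 0, with a median of 0.35 against −0.00 over all genes. The heme transporter gene Slc48a1 was 28.0, 31.3 and 31.4 normalized CPM in the RF.Ctrl mice and 40.1, 46.7 and 48.7 in the RF.SAAR mice. It was 32.5, 34.6 and 29.6 in the HF.Ctrl mice and 56.6, 51.0 and 48.7 in the HF.SAAR mice. The lowest restricted mouse was above the highest control mouse, and Slc48a1 rose by 0.64 ± 0.07 (adjusted p = 0.000234). The ferritin genes rose as well, Ftl1 by 0.63 ± 0.10 (adjusted p = 0.00149) and Fth1 by 0.45 ± 0.07 (adjusted p = 0.00185), as did the heme oxygenase gene Hmox2, by 0.42 ± 0.07 (adjusted p = 0.00409). On regular fat 2 of the 13 rose and on high fat 4, and without the 5 mice over 1000 acinar CPM 0 on regular fat, 0 on high fat and 2 in the average. On high fat that fit had 0.92 for Slc48a1, 0.93 for Ftl1, 0.74 for Fth1 and 0.59 for Hmox2, where the main fit had 0.69, 0.67, 0.61 and 0.52. On regular fat it had 0.53 for Slc48a1 and 0.69 for Ftl1, against 0.58 and 0.60. Leaving out a mouse gave 0 to 2, 2 to 4 and 4 to 7 called genes. The count on regular fat was 0 without RF.Ctrl mouse 1, RF.Ctrl mouse 2, RF.Ctrl mouse 3 and RF.SAAR mouse 3: Slc48a1 was lost with adjusted p of 0.0677 without RF.Ctrl mouse 1, 0.0540 without RF.Ctrl mouse 2, 0.0533 without RF.Ctrl mouse 3 and 0.0632 without RF.SAAR mouse 3, and Ftl1 with 0.0598 without RF.Ctrl mouse 1, 0.111 without RF.Ctrl mouse 2, 0.183 without RF.Ctrl mouse 3, 0.0546 without RF.SAAR mouse 1, 0.123 without RF.SAAR mouse 2, 0.122 without RF.SAAR mouse 3, 0.0666 without HF.Ctrl mouse 1, 0.0531 without HF.Ctrl mouse 2, 0.0661 without HF.SAAR mouse 1 and 0.0513 without HF.SAAR mouse 3. On high fat Ftl1 was lost with 0.0628 without HF.Ctrl mouse 1, 0.0823 without HF.Ctrl mouse 3, 0.0788 without HF.SAAR mouse 1 and 0.0780 without HF.SAAR mouse 2, and Hmox2 with 0.1098 without HF.Ctrl mouse 1, 0.0779 without HF.Ctrl mouse 3, 0.0719 without HF.SAAR mouse 1 and 0.0868 without HF.SAAR mouse 2. Other settings that ended a call were effective length offsets for Slc48a1 on regular fat, and the compared groups alone for Ftl1 on regular fat and Hmox2 on high fat. Of 13 receptors and carriers for serum amyloid A, pentraxins and lipocalin 2, edgeR called 0 in the average, with a median of 0.03, 0 at an unadjusted p under 0.05 and 0 by DESeq2, and the most abundant, Apoe, had −0.14 ± 0.07 (adjusted p = 0.319) and 0.03 with library size alone.

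**Figure D4:**
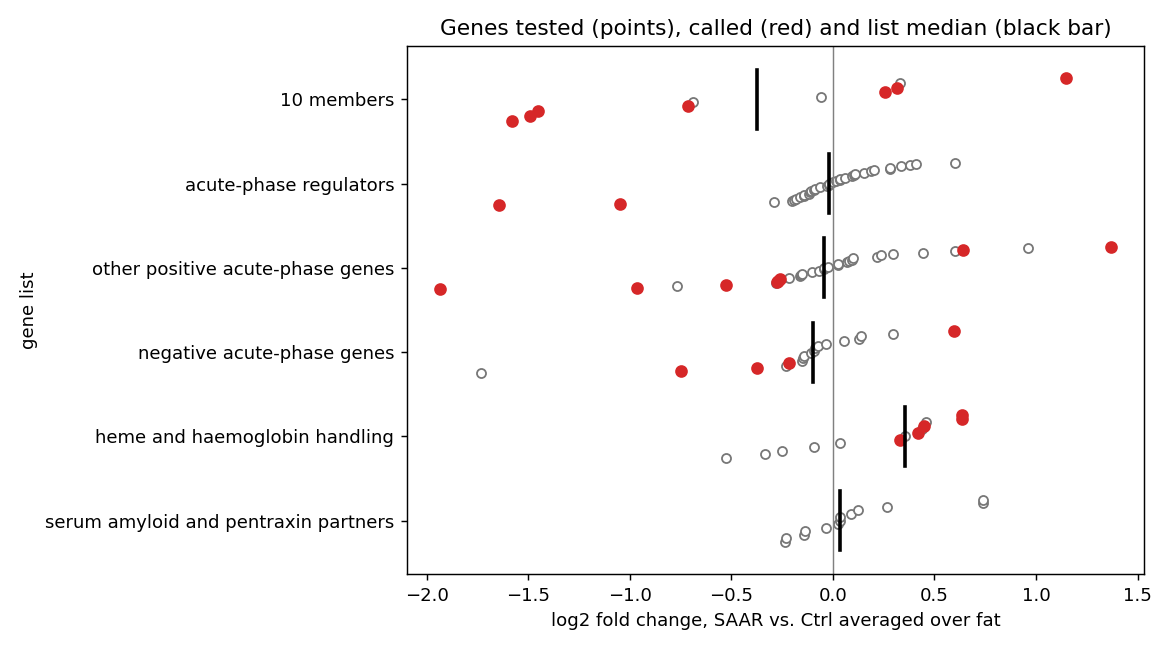
Log2 fold change (horizontal axis) of SAAR vs. Ctrl averaged over fat for every tested gene of the 10 members and of the 5 lists, with called genes in red, others open and the median of each list as a black bar. The members spread from −1.58 to 1.15, the lists of regulators and of partners center near 0, and the called genes for heme and hemoglobin handling all lie above 0.

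Markers of other cells were compared over the same mice, since several members are also made or taken up outside hepatocytes. In the average over fat edgeR called 0 of the 10 hepatocyte markers, with 1 at an unadjusted p under 0.05 and 0 by DESeq2. Of the 10, 1 was above 0 in the average (median −0.12), 1 on regular fat (−0.13) and 3 on high fat (−0.04). It called 0 of the 13 Kupffer cell and macrophage markers, with 0 and 0, whose summed normalized CPM ranged from 450.2 to 701 and was led by Lyz2. Of the 13, 10 were above 0 in the average (median 0.10), 4 on regular fat (−0.09) and 12 on high fat (0.28). In the interaction all 13 were above 0 (median 0.29), with 3 at an unadjusted p under 0.05 and 0 called by either tool. The part of these cells in the members' restriction effects was not tested. Of 9 sinusoidal endothelial markers (319 to 371, led by Clec4g), 1 rose (Lyve1, 0.55 ± 0.11, adjusted p = 0.00746). Of 9 stellate cell and fibroblast markers (296 to 402, led by Dcn), 1 fell (Lrat, −0.59 ± 0.14, adjusted p = 0.0177, but 0.0538 without RF.SAAR mouse 3), and of 5 tested cholangiocyte markers (35.2 to 62.1), 1 fell (Spp1, the most abundant, −0.46 ± 0.09, adjusted p = 0.00766). By edgeR 0 of 9 tested lymphocyte markers (11.2 to 41.5, led by Ptprc), 0 of 6 tested adipocyte markers (15.7 to 87.1, led by Fabp4) and 0 of 28 tested acinar markers (led by Ctrb1, with Cela3a at 0 in all mice) were called, with 0, 1 and 0 at an unadjusted p under 0.05 and 0 in each by DESeq2. All 9 lymphocyte markers (median 0.59) and all 6 adipocyte markers (median 0.47) were above 0, as were 8 of 9 and 6 of 6 on regular fat (0.32 and 0.95) and 8 of 9 and 3 of 6 on high fat (0.45 and −0.02), and their part in the members' values was not tested. Of 6 red blood cell markers (243 to 674, led by Hbb-bs), 1 fell (Alas2, −1.15 ± 0.09, adjusted p = 9.02e-06). On regular fat all 6 were below 0, with a median of −0.77, 1 called by edgeR, 5 at an unadjusted p under 0.05 and 4 called by DESeq2. Their summed normalized CPM was 599, 674 and 604 in the RF.Ctrl mice and 321, 395 and 367 in the RF.SAAR mice. On high fat, where the groups overlapped, it was 471, 456 and 445 in the control and 347, 555 and 243 in the restricted mice. There 1 of the 6 was above 0 (median −0.11) and edgeR called 1, Alas2, at −1.36 ± 0.13 (adjusted p = 9.56e-05). Alas2 had −0.94 on regular fat, whereas Hbb-bs had −0.76 on regular and −0.00 on high fat. In the fit without the mice over 1000 acinar CPM, with 1 mouse per group left on high fat, Alas2 had −1.24 there. The part of red blood cell RNA in the values of the members and of the genes for heme and hemoglobin handling was not tested.

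The acinar RNA was uneven within the groups, at over 1000 normalized CPM in 4 of 6 mice on high fat and 1 of 6 on regular fat. In HF.SAAR vs. RF.SAAR all 28 tested acinar markers were above 0, with a median of 7.24, 28 at an unadjusted p under 0.05, 0 called by edgeR and 21 by DESeq2, and in HF vs. RF averaged over diet they were so too, with a median of 4.83, 28, 0 and 22. For restriction, all 28 had log2 fold changes below 0 on regular fat, with a median of −3.59, and above 0 on high fat, with a median of 1.22, following RF.Ctrl mouse 1 and HF.SAAR mouse 3. With the log2 summed acinar CPM as a covariate, 3 members were called on regular fat, where Apcs was lost, and 5 on high fat, where Saa1 was gained. In the average the covariate left 7 members called. Fgb, Mt1 and Slc40a1 were not followed by name through the alternative fits. Among the other list genes called in the average, the fit without the 5 mice ended the calls of Onecut1, Lbp, Lrg1, Fga, Igf1, Serpina6, Gc, Cyp3a11, Fth1, Hmox2, Lyve1, Spp1, Fgg and Orm3. In that smaller fit several of these had values about as large as before, with 0.64 for Lbp, −0.22 for Gc, 0.46 for Hmox2, 0.53 for Fth1, −0.84 for Cyp3a11 and 0.59 for Lyve1, whereas Serpina6 had 0.33, Lrg1 −0.37 and Fgg −0.16. Other settings ended fewer averaged calls: effective length offsets that of Igf1, library size alone those of Fga, Gc, Cyp3a11, Lrat and Fgg, the fit without the low-count filter those of Onecut1 and Cyp3a11, and the acinar covariate that of Cyp3a11. Beyond that covariate and the fit without the 5 mice, the part of acinar RNA in these results was not tested.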

How the data were processed

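Poly(A)-selected liver RNA of 12 mice was measured, 3 per diet group, and groups were taken from the sample labels. The authors deposited, for each mouse, estimated counts and TPM per transcript, and the submitters' processing notes name FastQC, cutadapt, kallisto and DESeq2. Estimated counts were summed per gene with the deposited transcript identifiers. Of 118489 transcripts listed, 116816 matched a gene, and the 1673 others, with 1.08% of all counts, were left out. Sums were rounded to whole numbers and tested with edgeR 4.0.16 (limma 3.58.1, R 4.3.3): TMM scaling, edgeR's group-wise filter on low counts, a robust quasi-likelihood fit of the 12 mice together and Benjamini-Hochberg adjustment over all 14670 genes tested. The SE is the log2 fold change divided by the root of F. Tables and plots were made in Python 3.11.15 with pandas 2.3.3, numpy 2.4.6 and matplotlib 3.10.9, and the fits were tested on simulated counts. Sequences are from RefSeq, build GRCm38.p6, which listed promoters of 8 of the 10 members. The motifs, the comparison of promoters and that of 31-base words were chosen with the data at hand.

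The alternatives were DESeq2 1.42.0, its size factors in edgeR (RLE), library size alone, no filter on low counts, a minimum of 10 counts per mouse, effective length offsets, the compared groups alone, paralogs summed (Saa1 with Saa2; Orm1 with Orm2 and Orm3), the log2 summed acinar CPM as a covariate, the fit without mice over 1000 acinar CPM, and leaving out each mouse in turn. The same alternatives were also run for the list genes whose log2 fold changes are given and for the counts of called genes in each list, choices made after seeing the data. Fgb, Mt1, Slc40a1 and Bach1 are named only as called, and their values were not followed through the alternatives. All members are named, and of each list the gene with the highest mean TPM and up to 4 genes with the smallest p among those called. Orm3, Saa3 and the called genes of lists with few calls were named after their values were seen. The genes nearest to Lcn2 in pattern are not reported here. The members and lists were chosen with earlier results of these data known. The liver lists were regulators, other positive and negative acute-phase genes, heme and hemoglobin handling, and partners of the members, beside markers of hepatocytes, neutrophils, Kupffer cells and macrophages, sinusoidal endothelial cells, stellate cells and fibroblasts, cholangiocytes, lymphocytes, pancreatic acinar cells, adipocytes and red blood cells.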

Additional observations from a re-analysis of the deposited data

How the results depend on the processing

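Of 1027 log2 fold changes of members and named genes under other settings, 926 kept their direction and side of the threshold, 58 were no longer called, 14 became called and 29 changed sign. Leaving out each mouse in turn gave 1320 values, of which 1158 kept both, 137 were no longer called, 4 became called and 21 changed sign. No value that changed sign was called in either fit, and except where a smaller number of mice shows it, the cause was not tested. With library size alone, Hp had 0.15 for restriction on regular fat, 0.071 on high fat and 0.11 averaged over fat, Lcn2 −0.030 and Crp −0.027 between the control groups, and Cebpa 0.044, Alb 0.021 and Apoe 0.025 for restriction averaged over fat. With the acinar covariate, Hp had 0.032 for restriction on regular fat, Saa1 −0.12, Saa2 −0.20 and Hp −0.016 between the restricted groups, Orm1 −0.016 for fat averaged over diet, and Saa4 −0.028 in the interaction. Without the 5 mice over 1000 acinar CPM, Hp had 0.050 on regular fat, 0.041 on high fat and 0.045 averaged, and between the control groups Saa1 had −0.37 and Saa2 −0.38. That fit gave Saa1 −0.084, Saa2 −0.70 and Orm2 −0.30 between the restricted groups, and for fat averaged over diet Saa1 −0.23, Saa2 −0.54, Orm1 −0.029, Hpx −0.048 and Apcs −0.038. In the interaction it gave Saa1 0.28 and Saa4 −0.027.

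Members called moved to 2 on regular fat, 0 on high fat and 4 averaged over fat without those 5 mice. DESeq2 and library size alone each called 7 on high fat, DESeq2 and the fit with no low-count filter each 1 between the restricted groups, and DESeq2 2 for fat averaged over diet. Leaving out a mouse gave 2 to 5 members on regular fat and 2 to 4 on high fat. Over the same fits, Hp ran from −0.068 to 0.050 on regular fat, and between the control groups Hpx ran from −0.053 to 0.062, Lcn2 from −0.16 to 0.39 and Crp from −0.045 to 0.13. Between the restricted groups Saa2 ran from −0.21 to 0.42 and Orm2 from −0.32 to 0.71, for fat averaged over diet Orm2 ran from −0.40 to 0.11, and in the interaction Saa1 ran from −0.54 to 0.25 and Saa4 from −0.080 to 0.14.

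Over all genes, DESeq2 called 606 for restriction on regular fat, 608 on high fat, 34 between the control groups, 86 between the restricted groups, 125 for fat averaged over diet and 16 in the interaction, where edgeR called 217, 289, 0, 7, 6 and 1. Library size alone called 359 up and 66 down on regular fat, 639 and 80 on high fat and 2175 and 274 averaged over fat, where TMM gave 88 and 129, 148 and 141, and 471 and 543. Between the control groups it called 1 and between the restricted groups 4. Without the 5 mice, 81 genes were called on regular fat, 6 on high fat, 236 averaged over fat, and 0 between the restricted groups and for fat averaged over diet. The compared groups alone gave 190 on high fat and 2 between the control groups. No low-count filter gave 3 between the control groups, 14 between the restricted groups and 18 for fat, the acinar covariate 1, 2 and 0 there, and effective length offsets 0 in the interaction. No paired analysis was possible because the replicate numbers are in the order of deposit and pair no mice.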
